A study of Homo sapiens with 16 samples.

Results

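The genes of DNA replication were followed through IMR32 cells treated with indisulam, alectinib or both. They are 53 genes taken by symbol from the deposited gene count table and cover 9 roles, from origin licensing to the supply of nucleotides. Each symbol was found once among the 58735 genes of the table, and all 53 were among the 22433 genes tested. IMR32 is a human neuroblastoma line, labelled as wild type, and a single line limits what can be read for other tumours. The groups were the combination (1.25 µM indisulam with 4 µM alectinib), indisulam alone (1.25 µM), alectinib alone (4 µM) and DMSO, the solvent. Each was sampled at 24 h in 4 libraries of polyadenylated RNA, 16 in all. Indisulam is an aryl sulfonamide that recruits the splicing factor RBM39 to a ubiquitin ligase for degradation, and alectinib inhibits the receptor tyrosine kinase ALK. The labels give replicate numbers but not whether replicates were separate cultures, so p-values measure only the spread between libraries, which may be technical.

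Replication is prepared in G1, when the origin recognition complex, CDC6 and CDT1 load the MCM2-7 helicase ring onto origins, and geminin blocks reloading later in the cycle. In S phase the kinase CDC7 with its partner DBF4 helps to turn the loaded ring into the active CMG helicase, which adds CDC45 and the GINS complex. Polymerase alpha with primase starts each strand, the clamp PCNA is placed by the RFC clamp loader to hold polymerases delta and epsilon on DNA, and RPA covers single strands. Most of these genes are transcribed at the transition into S phase, many of them by E2F factors, and neuroblastoma cells with high MYCN divide rapidly.

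Depth was 55080768 to 63740239 counts in 15 libraries and 90237379 in alectinib replicate 1. The 53 genes together held 0.383 to 0.414% of all counts in the combination, 0.495 to 0.515% in indisulam, 0.461 to 0.516% in alectinib and 0.608 to 0.633% in DMSO. Levels are given as CPM, the count scaled to a common library total with TMM factors. The lowest count of any of the 53 genes in any library was 303, for GINS4 in the combination. All 13 adrenergic neuroblastoma markers reached 1 CPM in DMSO, and their summed level was 2990 to 3530 CPM in the combination, 5010 to 5600 CPM in indisulam, 3870 to 4390 CPM in alectinib and 5100 to 5540 CPM in DMSO. Mesenchymal or fibroblast markers, 9 of 13 at 1 CPM or more in DMSO, summed to 170 to 196, 202 to 228, 201 to 207 and 245 to 255 CPM in the combination, indisulam, alectinib and DMSO. Single markers did not all follow these sums. MYCN, the highest adrenergic marker, had a mean of 2440 CPM in DMSO and 1290 in the combination. GATA3 (263 and 267) and CHGB (94.7 and 106) were not lower there. FOSL1 (0.26 and 13.6), COL3A1 (1.89 and 2.56) and SNAI2 (6.65 and 7.88) were higher, while most other mesenchymal markers were lower. Epithelial, blood and endothelial marker lists each summed to at most 2.32 CPM in any library. The part of these marker shifts in the results below was not tested. Libraries of the combination varied more than the others: the median coefficient of variation of the 53 genes was 10.3% in the combination, 5.11% in indisulam, 7.01% in alectinib and 5.91% in DMSO.

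In the combination, 42 of the 53 replication genes fell against DMSO, 5 rose and 6 were not called. A gene was called at an adjusted p under 0.05, from edgeR's quasi-likelihood test with Benjamini-Hochberg adjustment over all 22433 genes. Among all genes tested, 30.6% were called lower and 29.7% higher in the combination. The median log2 change of the 53 genes was -0.67, against 0.01 over all genes tested. At least 2-fold lower were 21 of the 53 genes, and 2515 of all 22433 genes tested. The 4 combination values lay below all 4 DMSO values for 41 of the 53 genes and above them for 3, where 27.3% of all genes tested lay wholly below and 25.5% wholly above. With upper-quartile scaling 38 of the 53 genes fell and 9 rose, and 25.7% of all genes tested were called lower and 35.8% higher.

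Most of the set also fell with each single drug. With indisulam 33 genes fell and 7 rose, where 24.8% of all genes tested were called lower and 23% higher, and the median log2 change was -0.34 (-0.01 over all genes tested). With alectinib 43 genes fell and none rose, where 12.3% of all genes tested were called lower and 9.99% higher, and the median was -0.40 (0.01 over all genes tested). With upper-quartile scaling, which raised the alectinib changes, 37 of the 53 genes fell and none rose in alectinib, and 8.24% of all genes tested were called lower and 14.6% higher. Changes of 2-fold or more downwards were found for 6 genes in indisulam and 1 in alectinib. Over all 22433 genes tested these numbers were 1528 and 123. The 3 comparisons use the same DMSO libraries, so their values are given side by side and are not independent of each other. A set of 28 genes fell in all 3 treatments, and 2, ORC3 and MCM7, were called in none. How many of all genes tested fell in all 3 or were called in none was not counted. All 3 calls held under every alternative run for 23 of the 28, and DNA2, POLA2, POLD1, RFC1 and RPA3 were the exceptions; RFC1 lost its indisulam call with upper-quartile scaling (adjusted p = 0.0549). In bulk RNA, fewer cells in S phase and less replication RNA in each cell cannot be told apart. MKI67, a marker of cycling cells, fell in the combination (-0.74 ± 0.06, log2 ± SE) and in alectinib (-0.59 ± 0.06) and rose in indisulam (0.19 ± 0.06), and its relation to the replication genes was not tested.

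**Figure D1:**
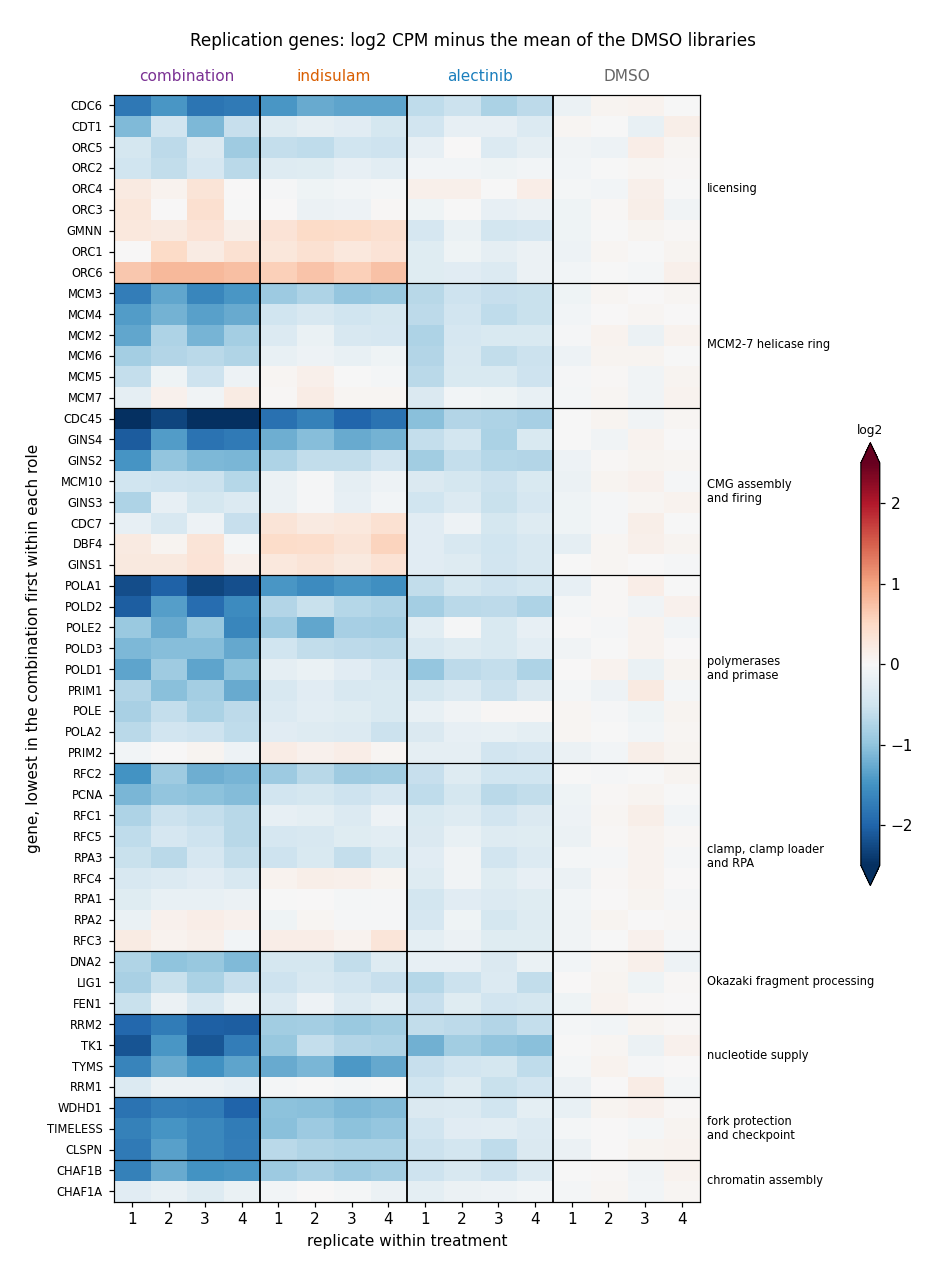
Log2 CPM of the 53 replication genes in each of the 16 libraries, minus the mean of the 4 DMSO libraries for that gene. Columns are libraries by treatment and replicate, rows are genes by role, and blue is lower than DMSO. CDC45 and POLA1 are the darkest rows in the combination, and ORC6 is the reddest.

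Origin licensing genes moved in both directions, as protein-coding genes did as a whole. Of the 9, 4 fell and 4 rose in the combination, 4 fell and 3 rose in indisulam, and 3 fell and none rose in alectinib. Of protein-coding genes tested, 39.2% were called lower and 30% higher in the combination. These shares were 30.8% and 24.2% in indisulam, and 17.9% and 9.44% in alectinib. The counts of this and the other roles were not tested against them. CDC6, the loader ATPase that joins the origin recognition complex, had 30.1, 38.1, 29.2 and 30.6 CPM in the combination, 37.9, 43.6, 41.6 and 41.7 in indisulam, 66.6, 71.6, 60.3 and 65.9 in alectinib and 94.3, 109, 110 and 103 in DMSO. Every treated library lay below every DMSO library, and the combination and indisulam values overlapped. The log2 change was -1.71 ± 0.08 (adjusted p = 3.33e-14) in the combination, -1.34 ± 0.08 (6.08e-12) in indisulam and -0.66 ± 0.08 (3.55e-06) in alectinib. CDT1, which brings the MCM ring to origins, fell in the combination (-0.80 ± 0.12) and stood at nearly equal values on either side of the threshold in the single drugs, -0.32 ± 0.12 in indisulam (adjusted p = 0.027) and -0.31 ± 0.12 in alectinib (0.0584). The indisulam call was lost with upper-quartile scaling (0.076) and without indisulam replicate 4, DMSO replicate 1 or DMSO replicate 4 (0.0832, 0.0587 and 0.0939), and CDT1 was called lower in alectinib under 10 alternatives.

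ORC6, the smallest subunit of the origin recognition complex, went the other way. It had 110, 121, 120 and 116 CPM in the combination, 104, 113, 104 and 115 in indisulam, 55.8, 56.4, 54.4 and 62.6 in alectinib and 65.8, 68.4, 66.5 and 75.2 in DMSO. The combination and indisulam libraries were all above DMSO, and the alectinib libraries were all below it. ORC6 rose by 0.76 ± 0.06 on the log2 scale in the combination (adjusted p = 3.95e-10) and by 0.66 ± 0.06 in indisulam (1.14e-08), and fell by 0.27 ± 0.06 in alectinib (-0.27, 0.00394).

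The origin recognition complex did not move as a unit. ORC1, an ATP-binding subunit that is degraded after G1 in human cells, rose in the combination (0.28 ± 0.08) and in indisulam (0.32 ± 0.08) and was not called in alectinib (-0.19 ± 0.08, adjusted p = 0.0862). Its combination values of 77.6 to 108 CPM overlapped the DMSO values of 71.2 to 81.6 CPM. ORC2 and ORC5 fell in the combination (-0.55 ± 0.07 and -0.58 ± 0.10) and in indisulam (-0.27 ± 0.07 and -0.56 ± 0.10), and neither was called in alectinib, where ORC2 was at -0.08 ± 0.07 (adjusted p = 0.451). ORC3 was not called against DMSO in any treatment and was at -0.12 ± 0.08 in alectinib (0.332). ORC4 passed the threshold in the combination only narrowly (0.17 ± 0.07, adjusted p = 0.0469), a call that held in 4 of the 16 fits that left out 1 library and reached an adjusted p of 0.213 without combination replicate 3. In alectinib ORC4 had the highest log2 value of the whole set, 0.10 ± 0.07, which was not called (adjusted p = 0.334).

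GMNN encodes geminin, the inhibitor of CDT1. It had 127, 123, 134 and 116 CPM in the combination, 134, 146, 144 and 139 in indisulam, 78.3, 93.5, 76.7 and 78.3 in alectinib and 98.2, 105, 110 and 108 in DMSO. No treated group overlapped DMSO: the combination and indisulam were above it and alectinib below it. The log2 change was 0.25 ± 0.07 in the combination (adjusted p = 0.00277), 0.42 ± 0.07 in indisulam (1.74e-05) and -0.37 ± 0.07 in alectinib (0.000345).

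Of the 6 MCM2-7 genes, 5 fell in the combination, 3 in indisulam and 5 in alectinib, and none rose. MCM3 changed most in the combination, with 155, 209, 166 and 189 CPM there, 275, 302, 263 and 272 in indisulam, 317, 358, 346 and 351 in alectinib and 478, 534, 519 and 534 in DMSO. The 4 groups were ordered without overlap, with the combination lowest and DMSO highest. The MCM3 change was -1.52 ± 0.08 (adjusted p = 6.11e-14) in the combination, -0.89 ± 0.08 (1.24e-09) in indisulam and -0.59 ± 0.08 (5.78e-06) in alectinib. MCM4 and MCM2 were also at least 2-fold lower in the combination (-1.29 ± 0.06 and -1.01 ± 0.10).

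Although the 6 proteins form a ring with 1 copy of each, their transcripts diverged. MCM5 and MCM6 fell in the combination (-0.32 ± 0.09 and -0.75 ± 0.07) and in alectinib (-0.49 ± 0.09 and -0.57 ± 0.07), and neither was called in indisulam (0.03 ± 0.09 and -0.16 ± 0.07). MCM7 had 466, 584, 517 and 632 CPM in the combination, 557, 622, 567 and 567 in indisulam, 425, 520, 509 and 478 in alectinib and 528, 568, 514 and 579 in DMSO. Each treated group overlapped DMSO, while indisulam and alectinib did not overlap each other. The MCM7 change was 0.01 ± 0.08 (adjusted p = 0.939) in the combination, 0.08 ± 0.08 (0.431) in indisulam and -0.18 ± 0.08 (0.11) in alectinib. Against alectinib, MCM7 was called higher in indisulam (log2 0.26) and in the combination (0.19). The call for the combination was lost under 12 alternatives. Exons of MCM7 share 8.94% of their bases with AP4M1 on the opposite strand.

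Per kilobase of exon, which allows levels of different genes to be set beside each other, PCNA led the set in DMSO at 235 CPM per kb, followed by MCM3 at 141 and MCM7 at 125. In the combination MCM7 led at 125 CPM per kb, PCNA was at 112 and MCM3 at 49.3. The lowest levels were those of GINS4 in the combination (1.22 CPM per kb) and of POLA2 in DMSO (2.73). Both genes share exon bases with other genes (23.56% and 35.14%), so these levels are uncertain. The median over the 53 genes was 11.2 CPM per kb in the combination, 15.1 in indisulam, 13.9 in alectinib and 18.8 in DMSO.

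Helicase assembly and firing held both the largest decrease of the set and 3 of the 6 genes called higher in indisulam and lower in alectinib. Of these 8 genes, 6 fell and 1 rose in the combination, 3 fell and 3 rose in indisulam, and all 8 fell in alectinib. The shares of protein-coding genes tested were 39.2% lower and 30% higher in the combination and 30.8% and 24.2% in indisulam. In alectinib they were 17.9% and 9.44%. CDC45, the factor that completes the CMG helicase, had 9.09, 15.8, 8.4 and 10.8 CPM in the combination, 21.1, 24.2, 19.5 and 21.6 in indisulam, 37.6, 47, 45.7 and 43.8 in alectinib and 77.3, 80.9, 72.6 and 79.8 in DMSO. No 2 groups overlapped, and the order was combination, indisulam, alectinib, DMSO. The log2 change was -2.82 ± 0.14 (adjusted p = 2.9e-14), a level of 0.142 of DMSO, in the combination. It was -1.85 ± 0.13 (5.48e-11) in indisulam and -0.84 ± 0.13 (4.03e-05) in alectinib. In the combination CDC45 ranked 76th from the lowest log2 change among the 22433 genes tested.

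The GINS complex has 4 subunits, and their transcripts took different courses. GINS4 fell to 5.32, 8.53, 6.3 and 6.58 CPM in the combination, 9.67, 10.8, 9.47 and 9.95 in indisulam and 14.9, 16.4, 13.1 and 17.3 in alectinib, against 22.4, 21.2, 24.2 and 22.9 in DMSO. These groups did not overlap, and the changes were -1.76 ± 0.12, -1.18 ± 0.11 and -0.56 ± 0.11 in the same order of treatments. GINS2 fell in all 3 treatments (-1.17 ± 0.09, -0.62 ± 0.09 and -0.73 ± 0.09), and GINS3 in the combination and alectinib (-0.43 ± 0.09 and -0.45 ± 0.09).

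GINS1 had 78.9, 79.6, 85.2 and 73.1 CPM in the combination, 80.5, 84.3, 78.9 and 86.6 in indisulam, 55.4, 53.3, 47.8 and 50.9 in alectinib and 66.2, 68.9, 67 and 65.9 in DMSO. The combination and indisulam were wholly above DMSO, and alectinib wholly below. GINS1 rose by 0.24 ± 0.06 in the combination (adjusted p = 0.00189) and by 0.30 ± 0.06 in indisulam (0.000338), and was at -0.37 ± 0.06 in alectinib (0.000162).

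The kinase CDC7 and its activator DBF4 rose in indisulam and fell in alectinib. CDC7 had 92, 80.1, 96.7 and 70.6 CPM in the combination, 132, 123, 127 and 137 in indisulam, 87.2, 96.7, 78.2 and 85 in alectinib and 97.7, 104, 117 and 106 in DMSO. Indisulam lay above DMSO, and the combination and alectinib lay below it, each without overlap. The CDC7 change was -0.32 ± 0.08 (adjusted p = 0.00202) in the combination, 0.29 ± 0.08 (0.00639) in indisulam and -0.29 ± 0.08 (0.0147) in alectinib. The combination call was lost with upper-quartile scaling. The alectinib call was lost with upper-quartile scaling, without alectinib replicate 3 and without DMSO replicate 3, there at an adjusted p of 0.0681. DBF4 had 65.8, 59.4, 71 and 54.9 CPM in the combination, 78, 76.6, 70.7 and 82.7 in indisulam, 46.6, 42.5, 39.8 and 42.7 in alectinib and 48.1, 58.1, 61.5 and 59.2 in DMSO. Its combination values overlapped DMSO, with a change of 0.15 ± 0.08 (adjusted p = 0.14), while indisulam (0.44 ± 0.08, 0.000141) and alectinib (-0.40 ± 0.08, 0.0013) stood on opposite sides of DMSO. MCM10, which aids helicase activation, fell in the combination (-0.57 ± 0.07) and alectinib (-0.43 ± 0.07).

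**Figure D2:**
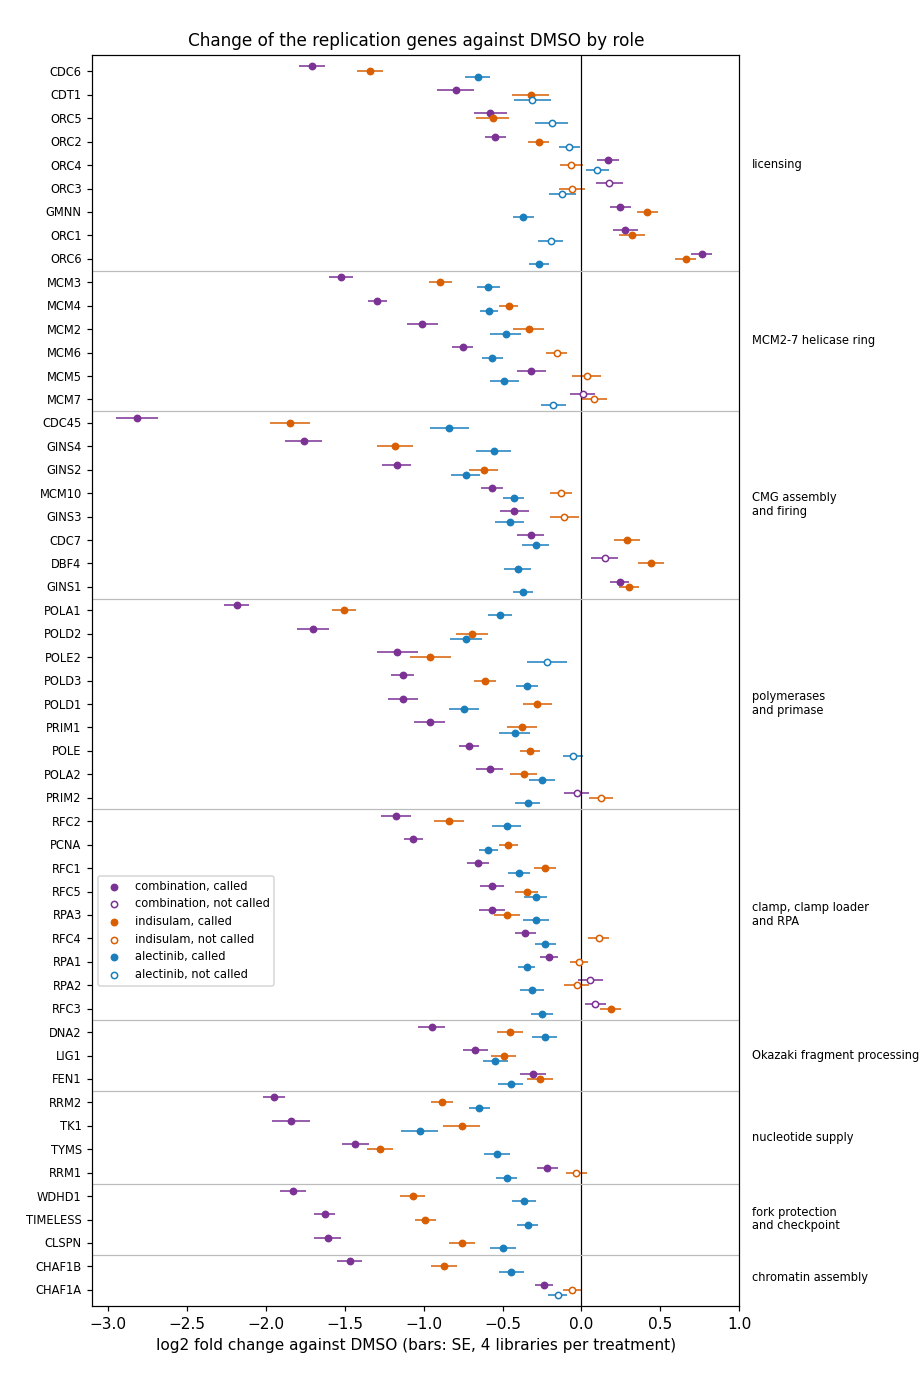
Log2 fold change against DMSO with its SE for each of the 53 genes (4 libraries per treatment), in the combination, indisulam and alectinib. Filled points passed the test. Most genes lie left of 0, mostly with the combination farthest left. Filled combination points right of 0 are those of ORC6, ORC1, GMNN, GINS1 and ORC4. Open ones are those of ORC3, DBF4, RFC3, RPA2 and MCM7.

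Polymerases and primase fell in 8 of 9 cases in the combination, 8 of 9 in indisulam and 7 of 9 in alectinib, and none rose. POLA1, the catalytic subunit of polymerase alpha, had 23.8, 27.3, 22.5 and 24 CPM in the combination, 40.2, 37.3, 40.5 and 38.2 in indisulam, 71.9, 81.5, 76.7 and 80 in alectinib and 96.2, 113, 124 and 110 in DMSO. The 4 groups did not overlap. The change was -2.19 ± 0.08 (adjusted p = 4.2e-16) in the combination, -1.51 ± 0.08 (3.8e-13) in indisulam and -0.52 ± 0.07 (2.74e-05) in alectinib. Its partner POLA2 fell less (-0.58 ± 0.09, -0.37 ± 0.08 and -0.25 ± 0.08 in the combination, indisulam and alectinib). The POLA2 alectinib call was lost with upper-quartile scaling, with no filter on low counts and without alectinib replicate 1 or 4 or DMSO replicate 1, 2 or 4, with adjusted p from 0.0675 to 0.136. Exons of POLA2 share 35.14% of their bases with another annotated gene on the same strand, which had few counts.

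The polymerase delta genes POLD1 and POLD2 fell in each treatment. POLD2, the accessory subunit, had 40.1, 64.2, 44.6 and 56.4 CPM in the combination, 100, 114, 102 and 97.1 in indisulam, 93.1, 104, 106 and 98.1 in alectinib and 161, 171, 157 and 179 in DMSO. The combination lay below all the other groups, while indisulam and alectinib overlapped each other. The POLD2 change was -1.70 ± 0.10 in the combination, -0.69 ± 0.10 in indisulam and -0.73 ± 0.10 in alectinib (adjusted p = 1.4e-05). The catalytic subunit gene POLD1 was at -1.13 ± 0.10, -0.28 ± 0.09 and -0.75 ± 0.09 (adjusted p = 5.48e-06 in alectinib) in the same order. Its indisulam call was lost with upper-quartile scaling (0.0647) and without indisulam replicate 4, DMSO replicate 2 or DMSO replicate 4 (0.0692, 0.055 and 0.0532). POLE, the catalytic subunit of polymerase epsilon, and its partner POLE2 fell in the combination (-0.71 ± 0.06 and -1.17 ± 0.13) and indisulam (-0.33 ± 0.06 and -0.96 ± 0.13). Neither was called in alectinib, where POLE was at -0.05 ± 0.06 (adjusted p = 0.606). In the primase, PRIM1 fell in all 3 treatments (-0.96 ± 0.10 in the combination), whereas PRIM2 was called only in alectinib (-0.34 ± 0.08) and was at -0.03 ± 0.08 in the combination (adjusted p = 0.765).

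Of the 9 genes for the clamp, the clamp loader and RPA, 7 fell in the combination and none rose, 5 fell and 1 rose in indisulam, and all 9 fell in alectinib. RFC2, a loader subunit, changed most in the combination (-1.18 ± 0.10, adjusted p = 2.06e-10), with 16.6, 25.4, 20 and 21.1 CPM there, 25, 29, 25.4 and 25.6 in indisulam, 31.6, 37.4, 33.1 and 33.2 in alectinib and 46.3, 45.7, 46.4 and 49.3 in DMSO. PCNA was at -1.07 ± 0.06 in the combination, -0.46 ± 0.06 in indisulam and -0.59 ± 0.06 in alectinib, and no treated group overlapped DMSO for either gene. RFC3, another loader subunit, had 91.1, 83.6, 86.5 and 75.8 CPM in the combination, 89.4, 88.4, 84.6 and 98.3 in indisulam, 66.8, 71.5, 64 and 64.4 in alectinib and 74.7, 78.6, 85.6 and 78.1 in DMSO. Alectinib lay below DMSO, and the other treated groups overlapped it.

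The RFC3 change was 0.09 ± 0.07 (adjusted p = 0.271) in the combination, 0.19 ± 0.07 (0.0267) in indisulam and -0.25 ± 0.07 (0.00968) in alectinib. The indisulam call held in 12 of 16 fits that left out 1 library, and the adjusted p was highest, 0.114, without indisulam replicate 4. The RFC3 call in alectinib was lost with upper-quartile scaling. The RPA subunits are the proteins that coat single-stranded DNA. RPA3 fell in all 3 treatments (-0.57 ± 0.08, -0.47 ± 0.08 and -0.29 ± 0.08 in the combination, indisulam and alectinib), RPA1 in the combination and alectinib (-0.21 ± 0.06 and -0.35 ± 0.06), and RPA2 in alectinib (-0.31 ± 0.08). The alectinib calls of RPA3 and of the loader subunit gene RFC4 were lost with upper-quartile scaling (adjusted p = 0.0708 and 0.0852) and without alectinib replicate 3 (0.0694 and 0.0552) or DMSO replicate 3 (0.0555 and 0.0643), and that of RFC4 also without alectinib replicate 1 (0.0582).

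Nucleotide supply was lowered in 4 of 4 genes in the combination, 3 of 4 in indisulam and 4 of 4 in alectinib. RRM2, the S-phase small subunit of ribonucleotide reductase, had 22.7, 26.2, 21.3 and 21.1 CPM in the combination, 47.9, 48.9, 46 and 48.1 in indisulam, 57.7, 56.1, 53.2 and 58 in alectinib and 85.5, 84, 92.7 and 90.3 in DMSO. Groups did not overlap, and values within a group were close. The change was -1.95 ± 0.07 (adjusted p = 4.73e-16) in the combination, -0.88 ± 0.07 (2.88e-10) in indisulam and -0.65 ± 0.07 (5.54e-07) in alectinib. TK1, the cytosolic thymidine kinase, had 31.4, 51.3, 31.8 and 42.6 CPM in the combination, 73.1, 92.7, 84.7 and 82.4 in indisulam, 60.8, 76.8, 71 and 68.3 in alectinib and 140, 146, 126 and 151 in DMSO. The combination was below both single drugs, which overlapped each other, and DMSO was above all. TK1 was the gene of the set with the largest decrease in alectinib, -1.02 ± 0.12 (adjusted p = 1.36e-06), and it was at -1.84 ± 0.12 in the combination and -0.76 ± 0.12 in indisulam.

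TYMS, thymidylate synthase, was lower with indisulam than with alectinib, at -1.28 ± 0.08 (adjusted p = 2.31e-11) and -0.53 ± 0.08, and at -1.43 ± 0.09 in the combination. Its exons share 46.56% of their bases with TYMSOS and ENOSF1 on the opposite strand, so its counts are uncertain where the strand setting of the counting is not known. RRM1, the large subunit of ribonucleotide reductase, fell in the combination by less than RRM2 (-0.22 ± 0.07, adjusted p = 0.00908). The RRM1 call was lost without DMSO replicate 3 (adjusted p = 0.0993), and its combination values overlapped DMSO. RRM1 was at -0.03 ± 0.07 in indisulam and -0.47 ± 0.07 in alectinib.

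**Figure D3:**
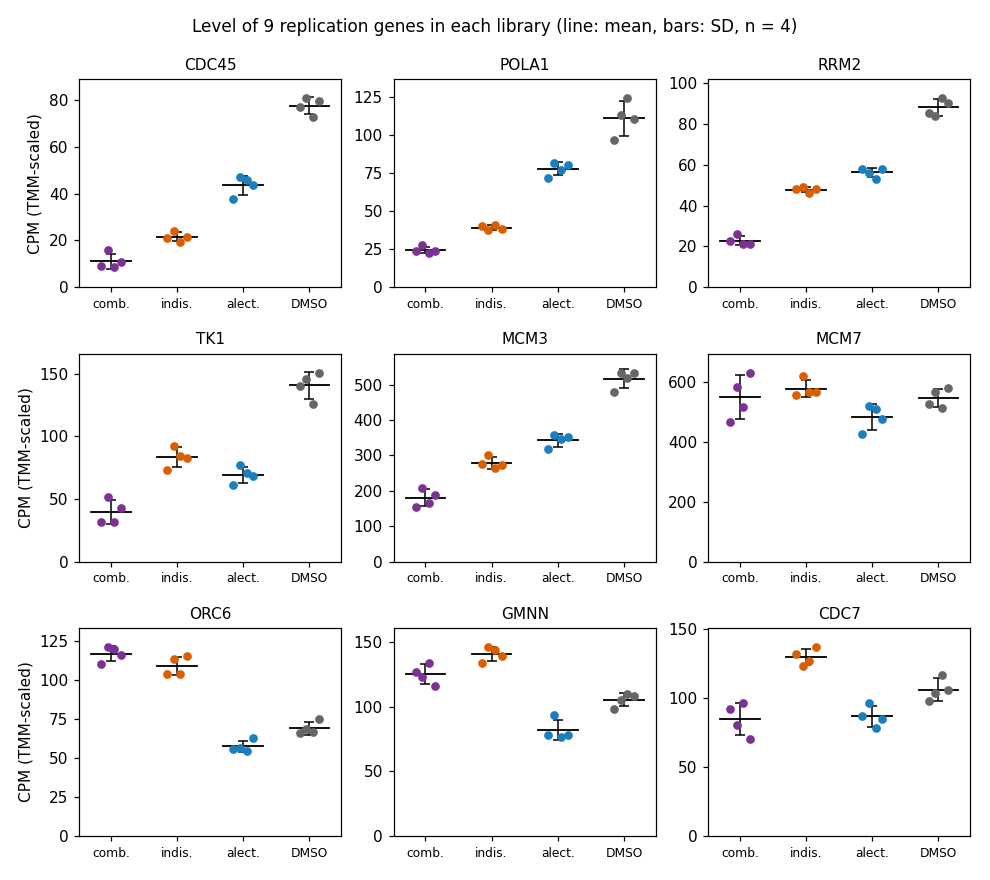
CPM of 9 replication genes in every library, with the mean and SD of the 4 libraries of each treatment; each vertical axis starts at 0. CDC45, POLA1, RRM2 and MCM3 are lowest in the combination and highest in DMSO without overlap. MCM7 overlaps DMSO in every treatment, and ORC6, GMNN and CDC7 are above DMSO in indisulam.

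All 3 genes of Okazaki fragment processing and all 3 of fork protection fell in each treatment. FEN1, LIG1 and DNA2, the flap endonuclease, ligase and helicase-nuclease that finish lagging strand pieces, were among them, with DNA2 at -0.95 ± 0.08 (adjusted p = 8.28e-10) and FEN1 at -0.31 ± 0.08 (0.00208) in the combination. DNA2 in alectinib was a narrow call (-0.23 ± 0.08, adjusted p = 0.043) that held in 9 of 16 fits without 1 library. TIMELESS, CLSPN and WDHD1, which keep helicase and polymerase together and relay the checkpoint signal, make up fork protection. WDHD1 had 17.3, 19.2, 18.6 and 15.5 CPM in the combination, 30.7, 30.3, 28.9 and 29.7 in indisulam, 48.8, 49.1, 44.4 and 52.9 in alectinib and 54.6, 65.5, 67.1 and 63.8 in DMSO. The groups did not overlap, and the WDHD1 changes were -1.83 ± 0.08 (adjusted p = 8e-15), -1.07 ± 0.08 and -0.36 ± 0.08. CLSPN, with the smallest combination change of the group, was at -1.61 ± 0.09 (adjusted p = 1.85e-13), -0.76 ± 0.08 and -0.50 ± 0.08.

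Chromatin assembly on new DNA was represented by CHAF1A and CHAF1B, subunits of the histone chaperone CAF-1. CHAF1B fell in the combination (-1.47 ± 0.08, adjusted p = 3.07e-13), indisulam (-0.87 ± 0.08) and alectinib (-0.45 ± 0.08). CHAF1A had 96.1, 103, 94.2 and 104 CPM in the combination, 112, 118, 113 and 106 in indisulam, 99, 105, 107 and 111 in alectinib and 114, 121, 112 and 122 in DMSO. Combination values were all below DMSO, and the change was -0.24 ± 0.06 (adjusted p = 0.0012). CHAF1A was not called in indisulam (-0.06 ± 0.06) or alectinib (-0.15 ± 0.06).

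The single drugs were compared directly, since a call in one and not in the other does not show a difference. Indisulam was lower than alectinib for 18 of the 53 genes and higher for 18, where 25.6% of all genes tested were called lower and 23.7% higher. The median log2 difference, indisulam over alectinib, was 0.06 for the set and -0.03 over all genes tested. Lowest were CDC45 (-1.01 ± 0.13) and POLA1 (-0.99 ± 0.08), and all 3 fork protection genes were lower with indisulam, CLSPN not without alectinib replicate 4 (adjusted p = 0.059). Highest were ORC6 (0.93 ± 0.06), DBF4 (0.84 ± 0.08), GMNN (0.79 ± 0.07) and GINS1 (0.67 ± 0.06). In helicase assembly and firing 5 of 8 genes were higher with indisulam, and in the MCM2-7 ring 3 of 6. CDC7 differed by 0.58 ± 0.08 (adjusted p = 4.47e-06) and RFC3 by 0.44 ± 0.07 (1.12e-05). These 6 genes, ORC6, GMNN, GINS1, CDC7, DBF4 and RFC3, were the ones called higher in indisulam and lower in alectinib. How many of all genes tested had this pattern was not counted. For CDC7 and RFC3 the alectinib call did not hold with upper-quartile scaling.

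**Figure D4:**
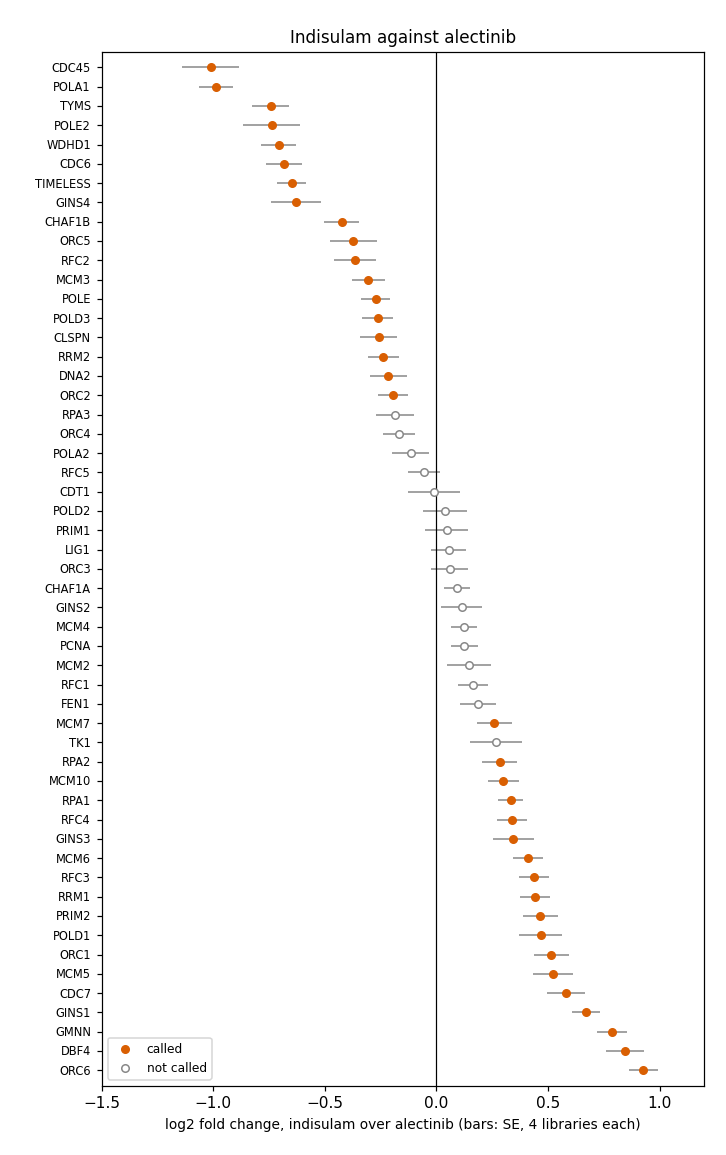
Log2 fold change of indisulam over alectinib with its SE for each of the 53 genes (4 libraries each), sorted. Filled points passed the test: 18 genes lie left of 0, led by CDC45 and POLA1, and 18 lie right of 0, led at the bottom by ORC6.

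The combination was below each single drug for many of these genes. Against indisulam alone, 38 genes were lower and 2 higher in the combination (20.1% and 18.9% of all genes tested), with a median of -0.37 against 0.01 over all genes tested. Against alectinib alone, 32 were lower and 12 higher (29% and 26.5% of all genes tested), with a median of -0.38 against -0.04. A set of 28 genes was lower in the combination than in each single drug, and 37 of 53 had their lowest mean level there. The share of all genes tested with either pattern was not counted. TK1 (-1.08 ± 0.12), RRM2 (-1.07 ± 0.07) and POLD2 (-1.01 ± 0.10) were the genes at least 2-fold lower in the combination than in indisulam. Of all 22433 genes tested, 488 were. Both calls held under every alternative run for 25 of the 28. MCM6 lost its call against alectinib under 4 other alternatives and without combination replicate 1, alectinib replicate 2 or alectinib replicate 4 (adjusted p up to 0.114), and RFC5 its call against indisulam without combination replicate 1 or 4 or indisulam replicate 3 or 4 (up to 0.0708). POLA2 was among the 28, with an adjusted p of 0.049 against indisulam that stayed under 0.05 in 3 of 16 fits without 1 library and reached 0.124 without indisulam replicate 1. The 2 genes higher in the combination than in indisulam were ORC3 (0.24 ± 0.08) and ORC4 (0.23 ± 0.07). ORC3 lost that call without combination replicate 1, combination replicate 3, indisulam replicate 2 or indisulam replicate 3, and ORC4 without combination replicate 3.

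The interaction was the deviation of the combination from additive drug effects: the log2 change of the combination against indisulam less that of alectinib against DMSO. Its median was -0.01 for the set and -0.02 over all genes tested, and 40 of 53 genes were not called. It was lower than 0 for 5 genes and higher for 8, where 6.63% and 6.85% of all genes tested were called. With upper-quartile scaling the split was 7 lower and 6 higher. CDC45, with the largest combination change, had an interaction of -0.13 ± 0.18 (adjusted p = 0.697), and POLA1 one of -0.17 ± 0.11 (0.347).

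The 5 genes below 0 were RRM2 (-0.42 ± 0.10, adjusted p = 0.00575), WDHD1 (-0.40 ± 0.11, 0.0197), POLE (-0.33 ± 0.09, 0.016), TIMELESS (-0.30 ± 0.09, 0.0321) and MCM4 (-0.25 ± 0.08, 0.0497). All 5 fell in the combination by more than the sum of the single-drug log2 changes. The 8 above 0 were of several kinds. ORC6 (0.37 ± 0.09, 0.00834) and GINS1 (0.31 ± 0.09, 0.0219) rose in the combination, while FEN1 (0.40 ± 0.11, 0.0207), LIG1 (0.37 ± 0.11, 0.0315), TYMS (0.38 ± 0.12, 0.037) and RRM1 (0.29 ± 0.10, 0.0489) fell in it by less than the sum of the single-drug changes. RPA2 (0.40 ± 0.11, 0.0173) and ORC3 (0.36 ± 0.12, 0.0461) were not called in the combination against DMSO.

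Calls of the interaction differed in how far they rested on single libraries. RRM2, POLE, ORC6 and RPA2 were called in all 16 fits that left out 1 library, and WDHD1 in 15, with an adjusted p of 0.0584 without alectinib replicate 4. FEN1 and GINS1 were called in 12, with adjusted p up to 0.0549 and 0.0618. TIMELESS and TYMS were called in 7, LIG1 in 6, ORC3 in 5, RRM1 in 3 and MCM4 in 2, with adjusted p up to 0.0734, 0.0929, 0.078, 0.109, 0.112 and 0.106.

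**Figure D5:**
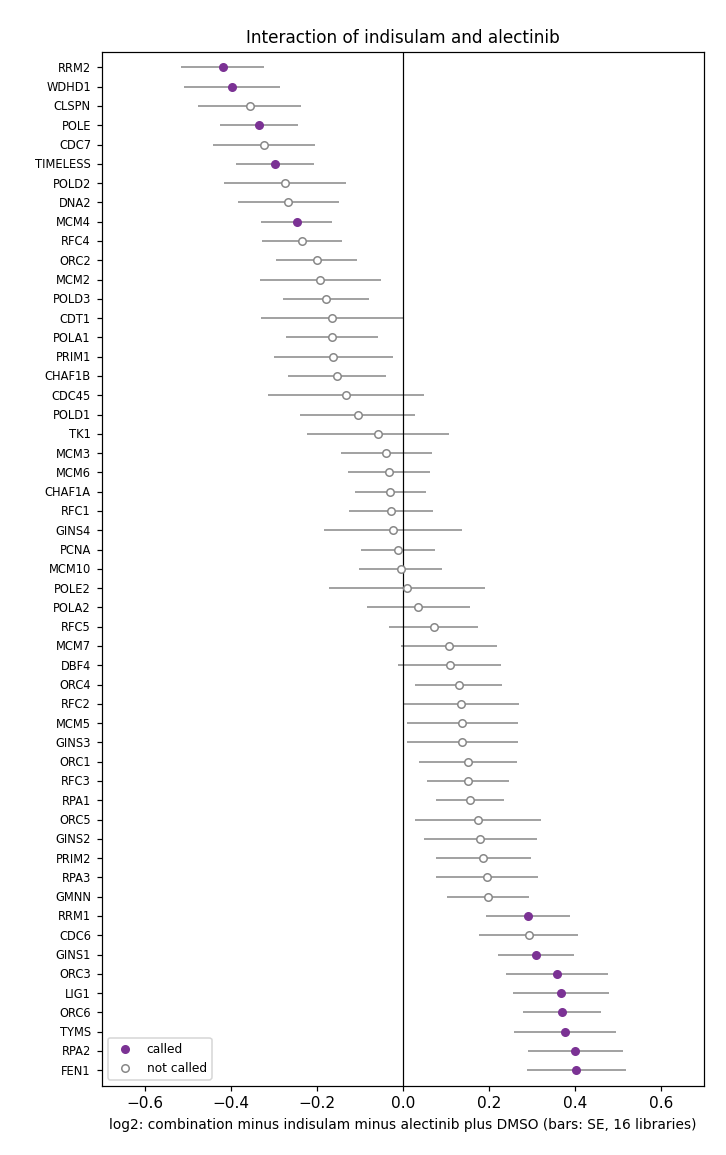
Interaction of indisulam and alectinib for each of the 53 genes (log2, with SE, from 16 libraries), sorted. The 13 filled points passed the test, 5 on the left from RRM2 to MCM4 and 8 on the right from RRM1 to FEN1; most genes lie within 0.2 of 0.

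Other genes of replication and its control were counted in 7 lists, each described by its calls and by the 4 genes with the lowest p in the combination against DMSO. Among all protein-coding genes tested, 39.2% were called lower and 30% higher in the combination, 30.8% and 24.2% in indisulam, and 17.9% and 9.44% in alectinib. Of 40 further fork and origin genes tested, 23 fell and 4 rose in the combination, 19 fell and 8 rose in indisulam, and 20 fell and 1 rose in alectinib. Topoisomerase TOP2A, which untangles sister DNA, was at -2.01 ± 0.07 (adjusted p = 3.87e-16), -1.30 ± 0.07 and -0.39 ± 0.07 in the combination, indisulam and alectinib. The DNA helicase gene RECQL was at -2.02 ± 0.10 (3.85e-14), -1.20 ± 0.10 and -0.66 ± 0.09 in the same order of treatments. HLTF, a remodeller of stalled forks, was at -1.44 ± 0.08 in the combination (5.31e-13). POLH, the polymerase that copies past ultraviolet damage, rose (1.06 ± 0.07, 2.91e-12, 0.26 ± 0.07 and 0.21 ± 0.07 in the combination, indisulam and alectinib).

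Of 28 further genes of nucleotide synthesis, 23 fell and 3 rose in the combination, 15 fell and 4 rose in indisulam, and 14 fell and 1 rose in alectinib. RRM2B, the p53-induced small subunit of ribonucleotide reductase, rose by 1.85 ± 0.09 in the combination (adjusted p = 6.83e-14) and 0.92 ± 0.09 in indisulam, opposite to RRM2, and was not called in alectinib (0.21 ± 0.09). PFAS, of purine synthesis, and MTHFD1, of folate metabolism, were at -1.90 ± 0.10 (1.37e-13) and -1.64 ± 0.07 (1.75e-15) in the combination and also fell in both single drugs. CAD, which starts pyrimidine synthesis, fell in the combination (-1.35 ± 0.07, 6.1e-14) and indisulam (-1.21 ± 0.07) and was at 0.03 ± 0.07 in alectinib (adjusted p = 0.821). Among 13 histone chaperone and maintenance methylation genes, 10 fell and 1 rose in the combination, 7 fell and 2 rose in indisulam, and 10 fell in alectinib. The maintenance methyltransferase DNMT1 was at -1.73 ± 0.07 (7.27e-16) in the combination, its recruiter UHRF1 at -1.54 ± 0.08 (1.63e-13), the histone chaperone ASF1B at -1.69 ± 0.11 (5.77e-12) and the CAF-1 subunit RBBP4 at -0.97 ± 0.05 (3.01e-13).

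Among 18 G1/S cyclins, kinases and inhibitors, 12 fell and 4 rose in the combination, 7 fell and 6 rose in indisulam, and 13 fell and 1 rose in alectinib. The S-phase cyclin CCNA2 was at -1.40 ± 0.07 (adjusted p = 4.07e-14), -0.45 ± 0.07 and -0.60 ± 0.07, and the inhibitor CDKN1A at 3.16 ± 0.13 (1.43e-15), 1.30 ± 0.12 and 0.60 ± 0.12, in the combination, indisulam and alectinib. The kinases CDK4 and CDK2 were at -1.65 ± 0.11 (3.68e-12) and -1.02 ± 0.07 (9.81e-12) in the combination. Of 18 genes for E2F and pocket proteins and their partners, 8 fell and 7 rose in the combination, 6 fell and 5 rose in indisulam, and 8 fell in alectinib. The cell cycle transcription factor MYBL2 fell in the combination (-2.02 ± 0.10, 3.92e-14). The repressor genes of the E2F family did not move together there: E2F8 fell (-1.60 ± 0.12, 5.29e-11), and E2F6 and E2F7 rose (0.84 ± 0.06, 7.05e-11, and 1.01 ± 0.08, 9.72e-11).

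Ubiquitin ligase genes of licensing control had 6 of 11 lower and 2 higher in the combination, 2 lower and 1 higher in indisulam, and 8 lower in alectinib. DTL, the receptor through which CDT1 is degraded, was at -1.87 ± 0.08 (adjusted p = 2.46e-15) in the combination, its adaptor DDB1 at -0.61 ± 0.06 (9.8e-09), its scaffold CUL4A at -0.45 ± 0.05 (5.59e-08) and CCNF, cyclin F, at -0.63 ± 0.07 (6.61e-08). Replication checkpoint genes had 7 of 13 lower and 1 higher in the combination, 6 lower and 3 higher in indisulam, and 6 lower in alectinib. PKMYT1, a kinase that restrains CDK1, fell in the combination (-2.05 ± 0.13, 3.29e-12), as did ATRIP, the partner of the checkpoint kinase ATR (-1.08 ± 0.11, 9.61e-09), and the phosphatase gene CDC25B (-0.71 ± 0.07, 5.24e-09). The checkpoint clamp subunit gene HUS1 rose (0.95 ± 0.07, 1.56e-11).

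Promoter windows of RefSeq (GRCh38.p14), the 250 bases before a start, were found for 46 of the 53 genes, 58 windows in all. Letters of the E2F motif (TTTCCCGC, TTTGGCGC, TTTCGCGC or TTTGCCGC, either strand) stood in 15 of the 58 windows (25.9%), and in 2.79% of all 35116 windows in the table. Counted by gene, 15 of 46 replication genes had a match in any window, against 679 of 14896 protein-coding genes (4.56%). A match was present for 11 of 36 genes lower in the combination, 1 of 5 higher and 3 of 5 not called. CCAAT, the core of the NF-Y motif, stood on either strand in 55.2% of the windows and in 32% of all windows. TTTGAA, the cell cycle homology region of genes expressed in G2 and mitosis, stood on either strand in 1.72% and 13.3%. A match is a description of letters and shows neither binding nor a cause.

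The stretches of 4 of these windows that lie outside exons of GENCODE 29 are shown with E2F letters in capitals. All 4 genes, POLA1, MCM6, PCNA and CDC7, fell in the combination and in alectinib, and CDC7 rose in indisulam. With upper-quartile scaling CDC7 was called in neither the combination nor alectinib. No gene that rose in the combination is shown. The stretches are written 5′ to 3′ on the strand of the gene. The POLA1 (chrX:24693668-24693917, plus), MCM6 (chr2:135876444-135876693, minus) and PCNA (chr20:5126627-5126785, minus) stretches lie upstream of the annotated gene, and the CDC7 stretch (chr1:91500949-91501107, plus) lies between the first exons of its alternative transcripts.
POLA1: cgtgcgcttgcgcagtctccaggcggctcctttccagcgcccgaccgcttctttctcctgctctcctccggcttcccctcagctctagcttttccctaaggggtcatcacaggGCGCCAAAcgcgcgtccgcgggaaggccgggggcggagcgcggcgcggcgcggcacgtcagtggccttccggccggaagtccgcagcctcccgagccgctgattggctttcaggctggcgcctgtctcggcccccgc
MCM6: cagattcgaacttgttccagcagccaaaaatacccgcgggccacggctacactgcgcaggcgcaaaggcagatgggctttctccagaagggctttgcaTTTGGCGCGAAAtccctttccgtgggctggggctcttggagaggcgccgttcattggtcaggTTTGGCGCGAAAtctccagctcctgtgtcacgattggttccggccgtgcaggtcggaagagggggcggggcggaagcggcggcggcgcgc
PCNA: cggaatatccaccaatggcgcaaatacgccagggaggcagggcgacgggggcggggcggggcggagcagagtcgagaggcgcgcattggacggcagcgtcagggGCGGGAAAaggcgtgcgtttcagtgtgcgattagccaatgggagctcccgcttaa
CDC7: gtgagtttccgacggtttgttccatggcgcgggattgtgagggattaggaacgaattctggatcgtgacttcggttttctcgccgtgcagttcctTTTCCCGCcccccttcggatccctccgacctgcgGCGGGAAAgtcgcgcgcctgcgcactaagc
MCM6 has 2 places where matches on both strands overlap, POLA1 and PCNA 1 match each, and CDC7 2.

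Many replication genes share their start region with a neighbour that runs the other way. In GENCODE 29, 16 of the 53 start head to head with another protein-coding gene, within 1000 bases or overlapping by at most 300. Of the 15 partners tested, 6 fell and 4 rose in the combination, 4 fell and 3 rose in indisulam, and 6 fell and none rose in alectinib, with medians of -0.05, -0.21 and -0.18. The combination counts were close to the 39.2% lower and 30% higher of all protein-coding genes tested. In indisulam those shares were 30.8% and 24.2%, and in alectinib 17.9% and 9.44%. The share of partners called lower in alectinib was above that of protein-coding genes, and this difference was not tested. Among these partners, TPRA1 and TMEM258 share exon bases with MCM2 and FEN1 on the opposite strand, so their counts are uncertain. Medians over protein-coding genes were -0.09, -0.05 and -0.04 in the combination, indisulam and alectinib. UFD1, whose start is 244 bases from that of CDC45, rose by 0.60 ± 0.07 in the combination. SOCS4, 125 bases from WDHD1, rose by 0.34 ± 0.09, while PRKDC, 2 bases from MCM4, fell with its partner (-1.53 ± 0.06).

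Gene span and level were set beside the changes. Across the 53 genes, which share libraries and are not independent replicates, Spearman's rho of the combination change was 0.14 with gene span and 0.03 with the DMSO level per kb. For the alectinib change these were 0.36 and -0.33, and for the indisulam change 0.05 and 0.17, all given as descriptions. Exons overlapping other genes took 20.23% of RRM2, 21.62% of PRIM1, 23.56% of GINS4 and 23.62% of MCM2 bases, and pseudogenes named after a member held at most 0.493% of its counts.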

How the data were processed

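RNA of 16 IMR32 libraries was analysed from 1 table of read counts per gene that the authors deposited without normalisation. Per the submitters' processing notes, HISAT2 2.2.1, featureCounts 2.0.1, Trimmomatic 0.39 and FastQC 0.11.9 were used with GRCh38. Strand use in counting was not given in the sources used here. Counts of overlapping genes are therefore uncertain. Start, end and strand of all 58735 genes were equal to GENCODE 29, the source of exon information.

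Groups were taken from the labels' titles. The filterByExpr filter of edgeR 4.0.16 in R 4.3.3 kept 22433 genes and dropped at most 0.0654% of any library's counts. After TMM scaling, edgeR's quasi-likelihood model was fitted, 1 mean per treatment over all 16 libraries, with 12 residual degrees of freedom. Tests were two-sided, with Benjamini-Hochberg adjustment over all 22433 genes and a threshold of 0.05. Log2 changes are ± SE, from the change and the F statistic, with 4 libraries per group, and use a prior count of 0.125. Every replication gene had at least 303 counts in each library, and libraries of 1 group differed by more than counting error (chi-square per degree of freedom over genes of 9.41 to 37.5). The fit was tested on simulated data; early runs missed the recovery set for them, and both that criterion and the simulated spread were revised before the test passed. DESeq2 1.42.0 and limma 3.58.1 (voom), other scalings and filters, pairwise fits, a replicate block and leaving out each library were alternatives.

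The members, their roles and the other gene lists were chosen with earlier results of these data known. Named with full statistics were, in each role, the genes with the lowest and the highest log2 change in the combination; for each single drug the 4 lowest and 4 highest; every gene called in the interaction or in opposite directions in comparisons with DMSO; and, from the other lists, the first 4 by p in the combination. MKI67 and further members described by role were named outside this rule. FAM111A, FAM111B and CCND2, listed beside the replication genes, did not pass the filter.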

Additional observations from a re-analysis of the deposited data

Results flagged for a closer look

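A group of 4 libraries was marked where the highest or lowest value stood far from the other 3 by Dixon's test at the 95% level. Of 212 such groups (53 genes in 4 treatments) 7 were marked, and chance marks about 1 in 20. In the combination, CDC6 was at 38.1 CPM in replicate 2, against 29.2 to 30.6 CPM in the others. In indisulam, replicate 2 was highest for MCM7 (622 CPM, the others 557 to 567), RFC2 (29 CPM, the others 25 to 25.6) and PRIM1 (21.5 CPM, the others 19.8 to 20). In alectinib, GMNN was at 93.5 CPM in replicate 2 (the others 76.7 to 78.3), and MCM2 at 124 CPM in replicate 1 (the others 158 to 163), the deepest library. In DMSO, RPA3 was at 34.1 CPM in replicate 3 (the others 31.1 to 31.5).

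The effect of indisulam was called different with and without alectinib, by edgeR's test of the interaction with 4 libraries per group, for 13 genes. Of all genes tested, 6.63% were called lower and 6.85% higher in that test. Without DMSO replicate 2, 5 of the 13 calls held. MCM4 lost its call under 17 alternatives, RRM1 under 15 and ORC3 under 13. The log2 interaction was -0.42 for RRM2, -0.40 for WDHD1, -0.33 for POLE, -0.30 for TIMELESS and -0.25 for MCM4. It was 0.29 for RRM1, 0.31 for GINS1, 0.36 for ORC3, 0.37 for ORC6, 0.37 for LIG1, 0.38 for TYMS, 0.40 for FEN1 and 0.40 for RPA2.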

How the results depend on the processing

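No gene of the set that was called in any of the 7 comparisons was called in the opposite direction under any alternative run. Over the genes, comparisons and alternatives other than leaving out 1 library, 2039 calls were kept, 52 were lost and 65 were gained, and 759 results stayed uncalled. With 1 library left out these numbers were 4021, 187, 49 and 1679. The genes called higher in the combination against DMSO numbered 5 in the main fit, 9 with upper-quartile scaling and 8 with a filter of at least 1 CPM in 4 libraries; the cause was not tested. Upper-quartile scaling moved the median of all genes by 0.122 in that comparison, to 0.13, and that of the set to -0.55. It ended the calls of RRM1, RPA1, CHAF1A and CDC7 and added RFC3, ORC3, RPA2 and DBF4 as higher.

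With 1 library left out, between 41 and 42 genes fell and between 4 and 7 rose in the combination against DMSO, 31 to 34 fell and 6 to 7 rose in indisulam, and 39 to 45 fell in alectinib. Genes higher in the combination than in indisulam ranged from 0 to 2. Genes called in the interaction ranged from 2 to 7 lower, with 2 without alectinib replicate 4, and from 2 to 9 higher, with 2 without indisulam replicate 3.

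The labels do not say that a replicate number marks a shared culture or day. Correlations of same-numbered deviations from the group means lay between -0.0626 and 0.168, over 0.1 in 5 of 24 pairs, so the numbers were not treated as pairs. As a hint of pairing in the data, 10 of 16 libraries correlated best with a library of their own number, which 3 of the 12 candidates of each carry. With the replicate number as a block, called members were 47 in the combination (47 without the block), 41 in indisulam (40), 46 in alectinib (43) and 15 in the interaction (13). One cell line, 1 time and 1 dose per drug limit these comparisons, and RNA levels do not give protein levels or DNA synthesis.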

Other observations

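Libraries of the combination differed among themselves. For 22 replication genes both replicate 1 and replicate 3 lay below both replicate 2 and replicate 4, among them CDC45, TK1, POLD2 and 5 of the MCM2-7 genes. For 12 genes, among them CDC7, DBF4, GMNN and ORC2 to ORC5, both lay above. Over all genes tested 54.5% were divided in one of these ways, against 64.2% of the replication genes. The pattern was noticed in the data, carries no label and was not tested.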
